A study of Mus musculus with 6 samples.

Results

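Eicosanoids are signalling lipids made from arachidonic acid, and the genes described here encode the enzymes that make them. The list held 10 genes, chosen by name with earlier results of these data known: Pla2g4a, Ptgs1, Ptgs2, Tbxas1, Alox12, Alox15, Alox5, Alox5ap, Lta4h and Ltc4s. A gene was taken where a row of the deposited array table names it alone, which gave 9 of the 10, with 1 row each, among 30063 named genes. Ptgs1 was not analysed here. Megakaryocytes, the polyploid marrow cells that release platelets, had been sorted from bone marrow of female C57 mice by high side scatter, high CD41 and a DNA content of at least 8N. The 3 AML arrays come from mice with acute myeloid leukaemia (AML) induced by MLL-AF9, a fusion oncogene, and the 3 control arrays from healthy mice. Age, the way in which the fusion gene was introduced and whether animals were pooled are not given in the sources used here. The arrays of a group are called biological replicates, numbered 1 to 3, and given no animal numbers, and the p-values below reflect only how far these arrays spread, which may be technical.

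Cytosolic phospholipase A2, encoded by Pla2g4a, frees arachidonate from membranes. Cyclooxygenases (Ptgs1, constitutive, and Ptgs2, inducible) turn it into prostaglandin H2, from which thromboxane synthase (Tbxas1) makes the platelet activator thromboxane A2. Lipoxygenases form the other branch: Alox12 is the platelet 12-lipoxygenase, Alox15 the mouse leukocyte 12/15-lipoxygenase known from macrophages and eosinophils, and Alox5 the 5-lipoxygenase that, with its membrane partner Alox5ap, makes leukotriene A4. Lta4h converts that product to leukotriene B4 and Ltc4s converts it to leukotriene C4. Platelets are known for thromboxane and the product of Alox12, and myeloid leukocytes for leukotrienes.

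In the AML sorts, transcripts of the inducible cyclooxygenase Ptgs2, of Alox15, of Pla2g4a and of Alox5ap fell, while the platelet enzymes Tbxas1 and Alox12 did not pass the test. The fall of Ptgs2 was 5.33-fold and that of Alox15 2.46-fold, against 1.47-fold for Pla2g4a and 1.39-fold for Alox5ap. Of the 9 measured enzymes, 4 fell and 0 rose at an adjusted p of 0.05, and 5 did not pass. Because the list was chosen with earlier results of these data known, its share of falls is not an independent result. Over all 30063 genes, 6.25% fell and 4.49% rose by the same call, and among the 13242 genes brighter than the dim level defined below, 12.1% fell and 4.98% rose. The median difference of the 9 enzymes was -0.40 and that of all genes was +0.11, so that the enzymes' median lay at -0.50 relative to all genes. With each array centred on its median, the median difference of all genes was -0.014, 1.68% of all genes (505) were higher and 9.02% (2712) lower, in place of 1350 and 1880 genes, and the enzymes again gave 4 lower and 0 higher. The 4 falls dropped to 1, Ptgs2, without control array 2 and to 1, Ptgs2, without control array 3, and 2 were left with a replicate block or with a 1.5-fold minimum.

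Levels are log2 values, ± is the SD over n = 3 arrays, and differences are AML minus control on the log2 scale with the standard error (SE) of limma's fit across all genes and its Benjamini-Hochberg adjusted p. Levels of different genes come from different probes and are not compared. RMA values carry no call of presence. A dim level of 5.51, the 95th percentile of the mean levels of 1718 olfactory and vomeronasal receptor genes, marks what could not be told from background, and 8 of the 9 enzymes averaged above it.

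Ptgs2 and Pla2g4a are shown first with their start regions, because both fell and they lie next to each other among the protein-coding genes of chromosome 1 in RefSeq's annotation. The windows of Tbxas1 and Alox12 stand beside them as those of the platelet enzymes that did not pass. Each runs from 250 bases before to 50 bases after a transcript start, 5′ to 3′ on the gene's strand, from RefSeq's annotation of the mouse build GRCm38.p6. Such a window was at hand for 8 of the 10 listed genes. Alox15 and Alox5ap have no entry. Capitals mark matches on either strand to 5 motifs. The TATA box was searched as TATAAA and the core of the cyclic AMP response element as TGACG. A form of the ETS factor site was searched as AGGAAG, and a form of the site of the erythroid and megakaryocytic factor Gata1 as AGATAA. Other forms of these sites were not searched, so a window without a match may still hold one. The palindrome TTGCGCAA, bound by C/EBP factors, was added after the Ptgs2 window had been read. The windows lie at chr1:150099781-150100080 on the plus strand (Ptgs2), chr1:149961241-149961540 on the minus strand (Pla2g4a, the outer of its 2 windows), chr6:38918736-38919035 on the plus strand (Tbxas1) and chr11:70255321-70255620 on the minus strand (Alox12).
Ptgs2: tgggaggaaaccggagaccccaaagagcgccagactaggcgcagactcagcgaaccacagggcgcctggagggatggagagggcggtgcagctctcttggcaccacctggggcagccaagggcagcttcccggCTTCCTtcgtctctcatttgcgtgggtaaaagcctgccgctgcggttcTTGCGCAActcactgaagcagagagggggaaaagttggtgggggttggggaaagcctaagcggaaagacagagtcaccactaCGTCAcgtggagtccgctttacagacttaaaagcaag
Pla2g4a: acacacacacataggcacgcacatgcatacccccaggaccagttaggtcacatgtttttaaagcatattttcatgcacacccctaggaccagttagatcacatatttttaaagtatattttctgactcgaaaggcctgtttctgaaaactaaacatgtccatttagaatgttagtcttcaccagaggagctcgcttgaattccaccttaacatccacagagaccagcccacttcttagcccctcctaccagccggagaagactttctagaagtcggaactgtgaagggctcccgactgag
Tbxas1: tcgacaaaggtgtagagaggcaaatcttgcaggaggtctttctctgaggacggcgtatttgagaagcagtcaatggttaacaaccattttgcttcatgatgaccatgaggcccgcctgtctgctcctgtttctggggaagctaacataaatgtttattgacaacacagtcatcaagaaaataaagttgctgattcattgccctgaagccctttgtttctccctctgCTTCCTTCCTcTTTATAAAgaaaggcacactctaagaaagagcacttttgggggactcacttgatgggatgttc
Alox12: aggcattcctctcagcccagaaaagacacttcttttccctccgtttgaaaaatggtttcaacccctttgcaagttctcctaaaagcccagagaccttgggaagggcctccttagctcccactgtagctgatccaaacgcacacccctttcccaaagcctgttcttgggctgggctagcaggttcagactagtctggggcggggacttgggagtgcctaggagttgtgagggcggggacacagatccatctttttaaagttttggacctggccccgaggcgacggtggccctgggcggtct

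The Ptgs2 window held TTGCGCAA at 62 to 69 bases before the start, AGGAAG on the minus strand at 112 to 117 bases before it and TGACG on the minus strand at 13 to 17 bases after it. Of 32851 windows of that length over all genes, 0.183% held TTGCGCAA, 35.4% AGGAAG and 20.8% TGACG. Since TTGCGCAA was added after this window had been read, its match was known beforehand and its share is no test of it. The Tbxas1 window held TATAAA, which 13.6% of windows hold, in both orientations overlapping each other between 6 and 13 bases before the start, and 2 overlapping AGGAAG matches between 15 and 24 bases before it. AGATAA, held by 11.2% of windows, was in none of the 4, and the printed Pla2g4a window and the Alox12 window held none of the 5 motifs. The other Pla2g4a window, which is not printed, held TATAAA on the minus strand at 195 to 200 bases before its start and AGGAAG on the minus strand at 8 to 13 bases before it. The matches describe letters only, and binding was not measured.

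Pla2g4a, whose product supplies the arachidonate for both branches, stood at 8.10, 7.91 and 8.07 on AML arrays 1, 2 and 3, against 8.45, 8.56 and 8.74 on control arrays 1, 2 and 3. All 3 AML values lay below all 3 control values, which was so for 13.1% of all genes, while 28.2% had all AML values above. The means were 8.03 ± 0.10 in AML and 8.58 ± 0.15 in control, a difference of -0.55 (SE 0.10, 95% CI -0.79 to -0.32, limma adjusted p = 0.0183). It no longer passed once AML replicate 2, control replicate 2 or control replicate 3 was left out, and the adjusted p ran from 0.00557 to 0.077 over 15 alternatives.

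Ptgs2, the inducible cyclooxygenase, stood at 7.04, 6.88 and 7.26 on the AML arrays, against 9.40, 9.50 and 9.52 on the control arrays. The groups lay far apart, with a spread of 0.19 (SD) within AML and 0.07 within control. The means were 7.06 in AML and 9.47 in control, and the difference was -2.41 (SE 0.11, 95% CI -2.67 to -2.16, limma adjusted p = 2.21e-04). It ranked 30 among the 30063 genes by size of fall. Under the 15 alternatives it stayed between -2.53 and -2.32 and passed each time, with an adjusted p of 1.74e-05 to 0.00458. The exact two-sided permutation test gave p = 0.1 for Ptgs2, as for each enzyme whose groups did not overlap, the smallest that 3 against 3 arrays allow.

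Ptgs2os, a long non-coding gene between Pla2g4a and Ptgs2 in the order of the annotation, was chosen after its values were seen. It stood at 4.71, 4.71 and 4.72 on the AML arrays and at 4.72, 4.62 and 4.54 on the control arrays. These levels are below 5.51, and the difference of +0.08 did not pass (limma adjusted p = 0.427).

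Tbxas1, the thromboxane synthase of platelets, stood at 8.70, 8.10 and 8.78 on the AML arrays, against 8.74, 8.60 and 8.43 on the control arrays. The groups overlapped, AML array 2 being the lowest of the 6. The difference was -0.06 (SE 0.18, 95% CI -0.50 to 0.37, limma adjusted p = 0.819), and its sign turned to +0.09 under quantile normalization and +0.02 under cyclic loess. 

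Alox12, the platelet 12-lipoxygenase, stood at 9.71, 9.29 and 10.12 on the AML arrays and at 9.66, 9.19 and 9.14 on the control arrays. AML array 3 was the highest and control array 1 stood among the AML values. The means were 9.71 ± 0.41 in AML and 9.33 ± 0.29 in control, a difference of +0.37 (SE 0.23, 95% CI -0.17 to 0.91, limma adjusted p = 0.276) that passed under 0 of 15 alternatives. Leaving out AML array 3 gave +0.17, and leaving out AML array 2 gave +0.58. The order of the arrays within AML was the same for Alox12 and for megakaryocyte genes. The 17 megakaryocyte and platelet markers averaged 9.31, 8.99 and 9.61 in AML, in replicate order, against 9.36, 9.01 and 9.06 on the control arrays, so that array 3 was highest and array 2 lowest in AML for both, and control array 1 was the highest control for both. This AML order was not particular to Alox12. It also held for Tbxas1, for Ptgs2 (7.04, 6.88 and 7.26) and for the mean of the immediate early genes described below (7.33, 7.09 and 7.69). A link was not tested.

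**Figure D1:**
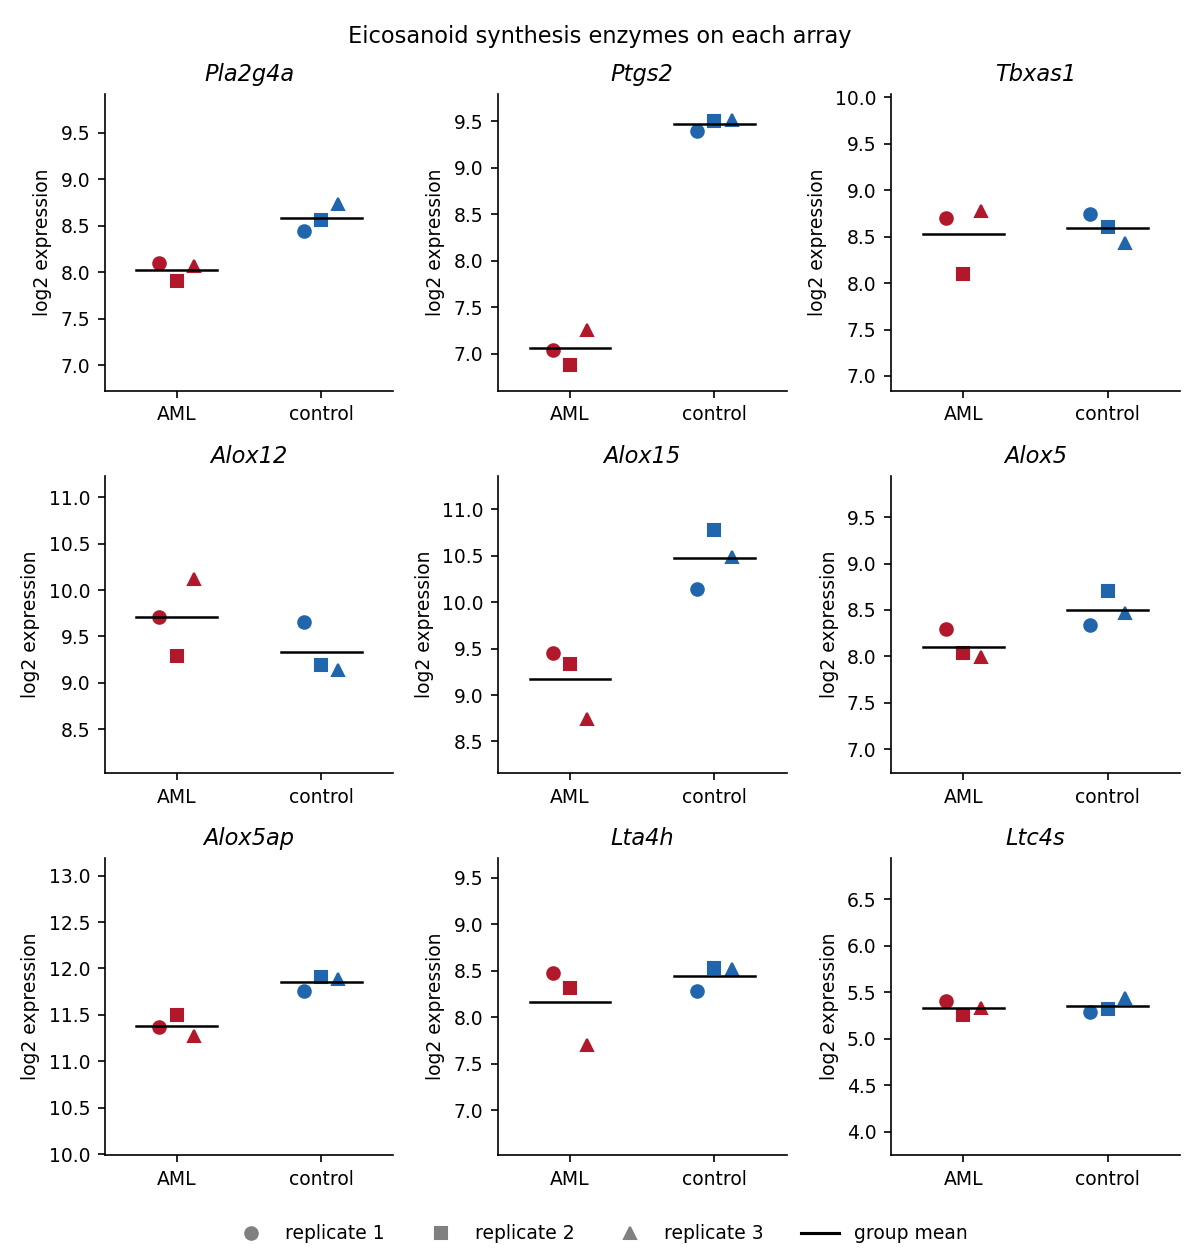
Level of each of the 9 measured eicosanoid synthesis enzymes (y axis, log2 expression, the same span in every panel) on the 3 AML arrays and the 3 control arrays. Symbols give the replicate number and bars the group mean. Ptgs2 stands at 6.88 to 7.26 in AML against 9.40 to 9.52 in control, while Tbxas1 and Alox12 overlap between the groups.

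Alox15, which lies close to Alox12 on chromosome 11 with Alox12e as the only protein-coding gene between them in the annotation, stood at 9.45, 9.33 and 8.74 on the AML arrays, against 10.14, 10.78 and 10.49 on the control arrays. AML array 3 was the lowest of the 6 and the groups did not overlap. The means were 9.17 ± 0.38 in AML and 10.47 ± 0.32 in control, a difference of -1.30 (SE 0.22, 95% CI -1.83 to -0.77, limma adjusted p = 0.0161). It no longer passed with control replicate 2 or 3 left out, the adjusted p running from 0.00326 to 0.0703 over 15 alternatives. Alox12e, an epidermal-type 12-lipoxygenase, fell by 0.35 to 5.71 ± 0.03 in AML, against 6.06 ± 0.12 in control (limma adjusted p = 0.041, lost in 6 of 15 alternatives, up to 0.157). It was chosen after its values were seen. Whether Alox15 and Alox12 differed from each other in their change was not tested.

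Alox5, the 5-lipoxygenase, stood at 8.29, 8.04 and 7.99 on the AML arrays and at 8.34, 8.70 and 8.47 on the control arrays. The groups did not overlap, though the highest AML value (array 1) lay close under the lowest control value (array 1). The difference of -0.40 (SE 0.12, 95% CI -0.69 to -0.10) did not pass (limma adjusted p = 0.0831) and passed in 1 of 15 alternatives, with array weights (adjusted p = 0.0383).

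Alox5ap, the membrane protein that presents arachidonate to 5-lipoxygenase, stood at 11.37, 11.50 and 11.27 on the AML arrays, against 11.76, 11.91 and 11.89 on the control arrays. All AML values lay below all control values. The means were 11.38 ± 0.11 in AML and 11.86 ± 0.08 in control, a difference of -0.48 (SE 0.09, 95% CI -0.68 to -0.27, limma adjusted p = 0.0194). Leaving out AML replicate 1, control replicate 2 or control replicate 3 ended the call, and the adjusted p ran from 0.00469 to 0.0932 over 15 alternatives.

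The enzymes that turn leukotriene A4 into its products did not pass. Lta4h, which gives leukotriene B4, stood at 8.48, 8.32 and 7.70 on the AML arrays and at 8.28, 8.53 and 8.52 on the control arrays. AML array 3 stood apart below the rest, and the difference of -0.28 (SE 0.20, 95% CI -0.75 to 0.19) had an adjusted p of 0.343 in limma. Leaving out AML array 3 brought the difference to -0.04, and leaving out AML array 1 brought it to -0.43. Ltc4s, which gives leukotriene C4, averaged 5.33 ± 0.08 in AML and 5.35 ± 0.08 in control (limma adjusted p = 0.865). Its mean of 5.34 lay under the dim level of 5.51.

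**Figure D2:**
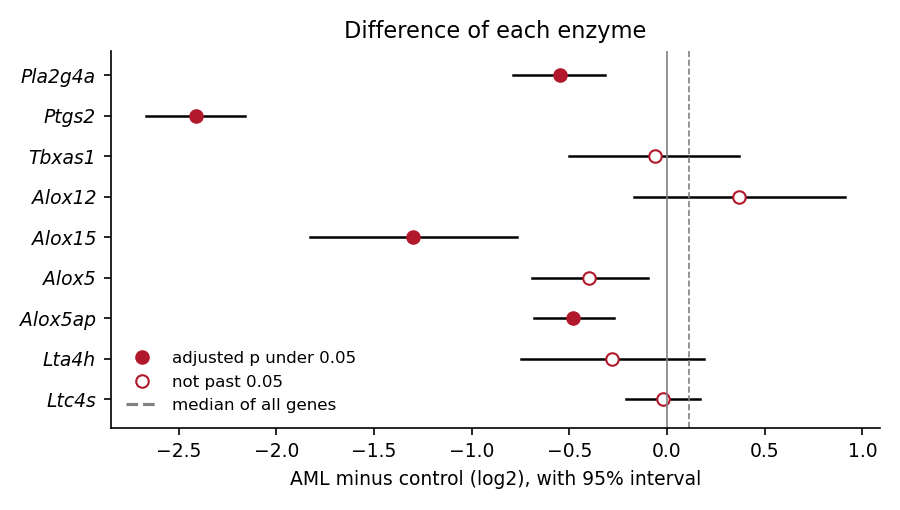
Difference of each enzyme, AML minus control (x axis, log2), with the 95% interval of limma's fit. Filled points have an adjusted p under 0.05. The solid line is 0 and the dashed line the median of all genes, +0.11. Ptgs2 lies at -2.41 and Alox15 at -1.30, while the intervals of Tbxas1, Alox12, Lta4h and Ltc4s include 0.

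Other genes of the pathway were taken from 5 lists with 67 genes, of which 62 were measured. These lists too were chosen with earlier results of these data known. Of these 62, 12 fell and 0 rose, 19.4% lower beside the 6.25% of all genes, and 50 did not pass. Without AML array 3, 3 rose, and with array weights 4 rose. Their median difference relative to all genes was -0.12. The falls comprised 5 of 15 genes of lipoxygenase relatives and leukotriene metabolism, 3 of 19 phospholipases and genes of arachidonate release or recycling, 2 of 11 prostanoid synthases and degrading enzymes, 1 of 3 transporters and 1 of 14 receptors.

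In the list of phospholipases and genes of arachidonate release or recycling, Pla2g7 stood at 7.42, 7.12 and 7.14 on the AML arrays, against 8.70, 8.99 and 9.04 on the control arrays. Pla2g7 encodes the secreted phospholipase that inactivates platelet-activating factor. Its difference was -1.68 (SE 0.13, limma adjusted p = 8.20e-04). Acsl4, which couples arachidonate to coenzyme A and so returns it to phospholipids, fell by 1.01 to 7.25 ± 0.06 in AML, against 8.26 ± 0.16 in control (limma adjusted p = 0.00197). Lpcat2, an acyltransferase that also makes platelet-activating factor, fell by 0.93 to 7.66 ± 0.20 in AML, against 8.59 ± 0.14 in control (limma adjusted p = 0.00595). All 3 kept their calls in the 15 alternatives.

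Among the synthases that follow the cyclooxygenases, Hpgds, the haematopoietic prostaglandin D synthase, stood at 5.70, 5.23 and 5.35 on the AML arrays, against 6.92, 6.74 and 6.78 on the control arrays. The difference was -1.39 (SE 0.13, limma adjusted p = 0.00175, at most 0.0137 over 15 alternatives), and its AML mean of 5.42 ± 0.24 was not above the dim level of 5.51. Prxl2b, a prostamide and prostaglandin F synthase, fell by 0.94 to 7.17 ± 0.28 in AML, against 8.11 ± 0.12 in control (limma adjusted p = 0.0112). Leaving out control replicate 2 or 3 ended its call (adjusted p up to 0.0573). Ptges, an inducible prostaglandin E synthase, stood at 6.07 ± 0.08 in AML and 5.98 ± 0.08 in control (limma adjusted p = 0.414), and Ptgis, the prostacyclin synthase, at 5.63 ± 0.08 in AML and 5.47 ± 0.05 in control (limma adjusted p = 0.166). Hpgd, which inactivates prostaglandins and was chosen after its values were seen, stood at 8.52, 8.47 and 7.78 on the AML arrays, against 7.71, 7.47 and 7.68 on the control arrays. Its difference of +0.64 missed the threshold (limma adjusted p = 0.0827), and 4 of 15 alternatives called it higher, at an adjusted p as low as 0.00426.

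In leukotriene metabolism, Cyp4f18, a cytochrome P450 that oxidises leukotriene B4, fell most, by 1.55, to 8.25 ± 0.23 in AML, against 9.80 ± 0.34 in control (limma adjusted p = 0.00431). Mgst1, Mgst2 and Mgst3, the microsomal glutathione transferases of the same protein family as Alox5ap and Ltc4s, fell by 1.02, 0.69 and 0.68 (limma adjusted p = 0.00309, 0.00221 and 0.00822). These 4 kept their calls in the 15 alternatives. Mgst2, which can make leukotriene C4 as Ltc4s does, stood at 5.87, 5.99 and 5.94 on the AML arrays, against 6.58, 6.64 and 6.66 on the control arrays. Abcc1, a transporter that exports leukotriene C4, fell by 0.39 to 6.35 ± 0.09 in AML, against 6.74 ± 0.11 in control (limma adjusted p = 0.0388), and lost its call without any single array (adjusted p up to 0.144 over the alternatives).

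Of the receptors, Ptger4, a prostaglandin E2 receptor, stood at 6.09, 6.10 and 6.51 on the AML arrays, against 6.77, 6.88 and 7.08 on the control arrays, a difference of -0.68 (SE 0.14, limma adjusted p = 0.0281). Leaving out AML replicate 1 or 2 or control replicate 2 or 3 ended the call (adjusted p up to 0.103). Tbxa2r, the thromboxane receptor of platelets, averaged 6.64 ± 0.03 in AML and 6.64 ± 0.14 in control (95% CI of the difference -0.21 to 0.21, limma adjusted p = 0.997). The prostacyclin receptor Ptgir and the leukotriene B4 receptor Ltb4r1, chosen after their values were seen, had groups that did not overlap but did not pass. Ptgir stood at 6.40 ± 0.36 in AML and 5.94 ± 0.03 in control (limma adjusted p = 0.115). It passed as higher in 2 of 15 alternatives, with array weights (adjusted p = 0.0192) and without AML array 3 (adjusted p = 0.0387), and its difference of +0.46 became +0.27 without AML array 1. Ltb4r1 stood at 5.86 ± 0.22 in AML and 6.69 ± 0.43 in control (limma adjusted p = 0.0571, under 0.05 in 6 of 15 alternatives).

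**Figure D3:**
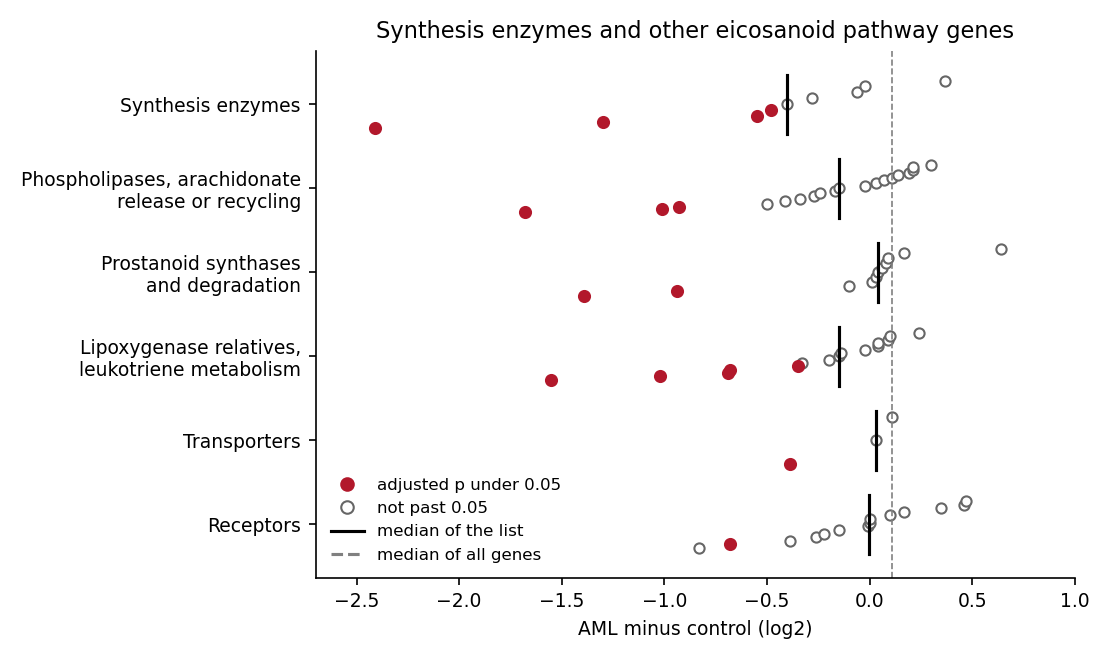
Differences, AML minus control (x axis, log2), of the 9 synthesis enzymes and of the 62 other pathway genes by list. Each point is a gene, filled where its adjusted p is under 0.05, short bars are list medians and the dashed line is the median of all genes, +0.11. The filled points, 4 enzymes and 12 other genes, all lie below 0.

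Many markers of other marrow cells were also lower in AML than in control, while those of the sorted cell type did not pass the test. Whether these falls and those of the enzymes are linked was not tested. Over all genes, 6.25% fell and 4.49% rose at an adjusted p of 0.05, as did 12.1% and 4.98% of those above the dim level. These shares stand beside the count of each marker list. Of 17 megakaryocyte and platelet markers, 0 rose and 0 fell, and 0 averaged at or below the dim level. Differences were below 0 for 4 of the 17. Gata1 and Nfe2, chosen after their values were seen, had all AML values above all control values, as 28.2% of all genes did. Neither passed (limma adjusted p = 0.11 and 0.0674). The chemokine genes Ppbp and Pf4 stood at 12.23 ± 0.16 and 11.98 ± 0.22 in AML, against 12.37 ± 0.17 and 12.09 ± 0.12 in control (limma adjusted p = 0.424 and 0.546). Of 17 monocyte and macrophage markers, 13 fell and 0 rose. Their mean level was 7.32 to 7.68 on the AML arrays, against 8.34 to 8.46 on the control arrays, and the log2 of their summed linear level was 12.78 to 13.16 in AML and 13.39 to 13.54 in control. The lysozyme gene Lyz2 fell to 9.53 ± 0.29 in AML, against 11.03 ± 0.09 in control, and Ly6c2 stood at 12.27 ± 0.30 in AML and 11.95 ± 0.10 in control (limma adjusted p = 0.187, past the threshold as higher in 2 of 15 alternatives).

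Of 7 eosinophil markers, 4 fell and 0 rose, with mean levels of 8.13 to 8.63 in AML and 9.20 to 9.49 in control and log2 sums of 12.56 to 13.01 in AML and 13.24 to 13.45 in control. Differences of the 7 ran from -2.82 to -0.04. The 2 brightest, which are named here, were not those that fell most. The granule protein gene Prg2 fell by 0.44 (limma adjusted p = 0.0468, lost in 6 of 15 alternatives), and Prg3 stood at 10.09 ± 0.49 in AML against 10.63 ± 0.18 in control (limma adjusted p = 0.164). Within AML, array 3 was lowest for the mean of the eosinophil markers (8.13) and for that of the monocyte and macrophage markers (7.32). Of the 4 fallen enzymes, Alox15 and Alox5ap were lowest on that array, while Pla2g4a was lowest on array 2 and Ptgs2 was highest on array 3. Alox5 and Lta4h, which did not pass, were also lowest on array 3 (7.99 and 7.70). The neutrophil markers were lowest on AML array 1 (8.50) and the basophil and mast cell markers on AML array 3 (6.25). Array weights gave AML array 3 the lowest weight of the 6 arrays, 0.286. Of 9 basophil and mast cell markers, 4 fell and 0 rose, with mean levels of 6.25 to 6.48 in AML and 7.26 to 7.51 in control. The basophil proteases Prss34 and Mcpt8 fell by 2.39 and 1.95, and Fcer1a and Ms4a2 also fell. The mast cell protease genes Cma1, Mcpt4, Tpsb2 and Cpa3 did not pass. Their differences were -0.05, -0.17, +0.16 and -0.23 (limma adjusted p = 0.716, 0.309, 0.542 and 0.447). Hdc did not pass either (limma adjusted p = 0.103). Cma1 and Mcpt4 averaged below the dim level, at 4.38 and 4.09, so their levels could not be told from background. Ms4a2, which fell, also averaged below it, at 4.34. Tpsb2 averaged 5.62, close to that level, and Cpa3 averaged 9.16. Whether basophil and mast cell genes differed in their change was not tested. All genes named from this list but Prss34 and Mcpt8 were chosen after their values were seen. Of 10 neutrophil markers, 9 fell and 0 rose, with mean levels of 8.50 to 8.87 in AML and 10.03 to 10.34 in control, and Ngp and Retnlg fell by 1.11 and 1.06. Differences of the 10 ran from -2.44 to +0.18.

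The smaller lists went the same way. Dendritic cell markers fell in 3 of 7, B cell markers in 4 of 6 and endothelial markers in 4 of 5, and 0 rose in each. In that order, differences ran from -2.91 to +0.59, from -1.19 to +0.10 and from -1.08 to -0.30. Itgax fell by 1.12 while Clec9a stood at 7.59 ± 0.31 in AML and 7.00 ± 0.67 in control, Cd79a and Cd79b fell by 0.43 and 0.39, and Cdh5 fell by 1.08 while Kdr stood at 5.80 ± 0.25 in AML and 6.11 ± 0.19 in control. Cd79a and Cd79b each lost the call in 6 of 15 alternatives, 5 of them with a single array left out (limma adjusted p up to 0.119 and 0.157). Cdh5 lost it in 4, without AML array 2 or any single control array (limma adjusted p up to 0.128). In these lists 3 of 7, 2 of 6 and 2 of 5 genes averaged at or below 5.51, as did 3 of the 9 basophil and mast cell markers.

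Ptgs2 is also an immediate early gene, one of the set that is induced within a short time of stimulation or tissue handling. Of 11 other immediate early genes, 3 fell, 0 rose and 8 did not pass, 27.3% lower beside 6.25% of all genes and 12.1% of those above the dim level. Their mean level was 7.09 to 7.69 on the AML arrays, against 7.86 to 7.97 on the control arrays. The falls were those of Dusp1, Zfp36 and Atf3. Differences were below 0 for 9 of the 11, with a median of -0.61 against +0.11 over all genes. All AML values lay below all control values for 6 of the 11, as for 13.1% of all genes. Jun, Ier3, Fos and Nr4a1 lay at -0.83, -0.66, -0.61 and -0.61 and did not pass. Egr1, Egr2 and Ier2 lay at +0.22, +0.30 and -0.02 and did not pass. Zfp36, Atf3, Jun, Ier3, Fos, Nr4a1, Egr1, Egr2 and Ier2 were chosen after their values were seen. Dusp1, a phosphatase of this set, fell by 1.52 to 8.67 ± 0.18 in AML, against 10.19 ± 0.07 in control (limma adjusted p = 6.44e-04), and Fosb stood at 9.13 ± 0.43 in AML and 9.77 ± 0.17 in control (limma adjusted p = 0.0954, past the threshold in 2 of 15 alternatives). The part of other cell types and of this response in the falls of Ptgs2, Alox15, Pla2g4a and Alox5ap was not tested. In bulk RNA of a sort, fewer cells of a type and less RNA per cell cannot be told apart.

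**Figure D4:**
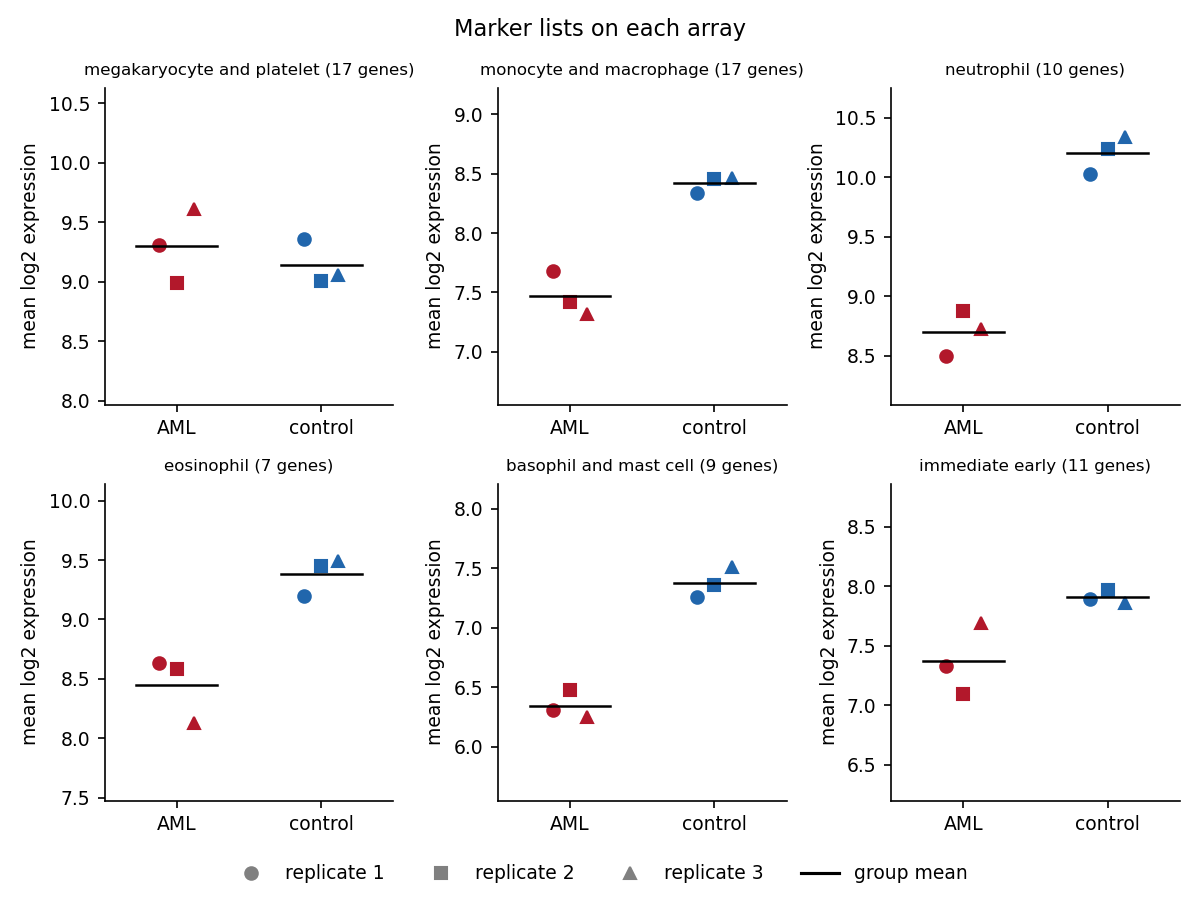
Mean level of 6 marker lists (y axis, log2 expression averaged over the genes of the list, the same span in every panel) on the 3 AML arrays and the 3 control arrays. Symbols give the replicate number and bars the group mean. The megakaryocyte and platelet list overlaps between the groups, and the other 5 lists lie lower on every AML array than on any control array.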

How the data were processed

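The 6 arrays measured RNA of sorted mouse megakaryocytes, 3 from AML and 3 from control mice. The authors deposited log2 values made with RMA per the submitters' processing notes, which name no version. RMA corrects background, gives all arrays 1 distribution and sums up the probes of each row, so the size of a change common to most genes is lost. The table holds 72688 rows, of which 30604 carry 1 gene symbol, 2146 several and 39938 none. Rows with several symbols were left unnamed. Symbols were brought up to date through RefSeq's gene table of GRCm38.p6 (22818 by gene number, 7476 by symbol, 308 by synonym, 2 unmatched), and of 429 genes with several rows the one with the highest mean was kept.

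The values were fitted as deposited, with no filter, by limma 3.58.1 in R 4.3.3 (lmFit, eBayes, two-sided, Benjamini-Hochberg over 30063 genes, threshold 0.05), and checked on simulated data. Python 3.11.15, scipy 1.17.1 (exact permutation tests) and matplotlib 3.10.9 were used. Members, gene lists and tests were chosen with earlier results of these data known. Genes named were all members, up to 4 fallen and 4 risen genes of each pathway list by smallest p, Tbxa2r, Ptgis, Ptges and Hpgds, and the 2 brightest genes of each marker list. Alternatives were a replicate block, a mean-variance trend, array weights, 3 normalizations, 2 filters on dim genes, averaging the rows of a gene, dropping each array in turn and a 1.5-fold minimum. Those for genes outside the members were added after seeing the data. The number of arrays limits the precision.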

Additional observations from a re-analysis of the deposited data

How the results depend on the processing

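Of the 9 enzymes, Ptgs2 kept its call in all 15 alternative fits, Alox15 in 13, and Pla2g4a and Alox5ap in 11 each. The number of enzymes that fell was 2 with a replicate block, 2 with a 1.5-fold minimum, 1 to 4 when single arrays were left out and 4 or 5 otherwise, and 0 rose under any alternative. It was 1 without control array 2 and 1 without control array 3. Over all genes, 1067 passed with the replicate block, 7853 with array weights, 1565 with a 1.5-fold minimum and 967 to 3606 without single arrays, in place of 3230. Of the other pathway genes, 4 rose with array weights, 1 under quantile normalization, 1 under cyclic loess and 0 to 3 without single arrays, in place of 0, while 8 to 11 fell without single arrays, 9 with the replicate block, 10 with a 1.5-fold minimum, 17 with array weights, 16 under quantile normalization, 17 under median centring and 17 under cyclic loess, in place of 12. Same-numbered arrays did not deviate together (correlations across genes of -0.36, 0.142 and -0.291). With 3 arrays per group this cannot exclude pairing, and the main fit does not pair the arrays. The calls of Pla2g4a, Alox5ap, Prxl2b, Alox12e, Abcc1, Prg2, Cd79a and Cd79b were lost under the block. Each of these calls was also lost when some single arrays were left out.

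Differences near 0 changed sign without passing. Tbxas1 gave +0.09 under quantile normalization, +0.02 under cyclic loess, and -0.19 to +0.15 without single arrays, among them +0.15 without AML array 2 and +0.01 without control array 1. Ltc4s gave +0.01 with array weights and -0.06 to +0.03 without single arrays, with +0.02 without AML array 2 and +0.03 without control array 3. Tbxa2r gave +0.05 with array weights, +0.06 under quantile normalization, +0.03 under cyclic loess and -0.06 to +0.07 without single arrays, with +0.02 without AML array 2 and +0.07 without control array 1. Ptges gave -0.03 under median centring, and Ptgs2os -0.07 under quantile normalization, -0.04 under median centring and -0.07 under cyclic loess. The cause was not tested. Ltc4s and Ptgs2os have no value where genes below the dim level are left out.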
